A study of Rattus norvegicus with 9 samples.

Results

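The transcriptome of rat hippocampal neurons after 24 h with aminoprocalcitonin (NPCT) was compared with that after vehicle. The comparison covers 6 of the 9 libraries of the series, 3 per group, and the 14594 of 34092 genes in the expression table whose mean over these 6 libraries was at least 1 FPKM (fragments per kilobase of gene length and per library size). Hippocampi of wild-type rat fetuses at embryonic day 17 were dissociated and grown on poly-D-lysine in neurobasal medium with B27. At 7 days in vitro the cultures received 1 nM human NPCT or vehicle. The cultures were grown without mitotic inhibitors. The labels number 3 replicates per group, while the methods speak of RNA pooled from biological triplicates, so the p-values measure only the spread between these libraries, which may be technical. Subunits of oxidative phosphorylation (OXPHOS) and ribosomal proteins were set aside, and the changes outside these families are described.

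NPCT is the amino-terminal peptide released from procalcitonin, the precursor of calcitonin, which is encoded by Calca together with calcitonin gene-related peptide through alternative splicing. Hippocampal cultures from fetal brain hold excitatory pyramidal neurons, a minority of GABAergic interneurons, and glial precursors that go on to divide and mature in the dish. In RNA from a whole culture, fewer cells of a type and less RNA per cell cannot be told apart.

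The libraries held 13573056 to 15360559 fragments on genes. The defining markers of neurons were abundant in every library, but so were those of glia. Gfap, the intermediate filament of astrocytes, measured 776 ± 48.1 FPKM with vehicle (SD, n = 3), and Olig1, a transcription factor of the oligodendrocyte lineage, 258.5 to 278.6 FPKM over the 6 libraries. The cultures labelled as neurons thus held glial markers at high levels. Summed FPKM of 10 neuronal markers ran from 1406 to 1475 with vehicle and from 1376 to 1465 with NPCT, and those of 7 astrocyte markers from 2106 to 2290 and from 2024 to 2346. The 7 oligodendrocyte markers summed to 398 to 415 with vehicle and 426 to 442 with NPCT, without overlap (p = 0.1 by a two-sided exact permutation over libraries, which cannot go lower with 3 against 3). Cldn5, the tight junction protein of brain endothelium, was listed at 0 in all 6 libraries, but so were Fth1 and Polr2h, genes that every cell uses, so this 0 is not read as absence.

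NPCT replicate 3 stood apart from the other libraries. A chi-square comparison of gene fragments, expressed per degree of freedom, gave 10.6 and 10.8 for this library against the other NPCT libraries. It gave 4.38 for NPCT replicates 1 and 2 and 4.16 to 4.97 for pairs of vehicle libraries. Its 7 microglial markers summed to 114 FPKM, against 27.3 and 30.6 FPKM in NPCT replicates 2 and 1 and 19.8 to 27.4 FPKM with vehicle. Its 4 markers of dividing cells summed to 36.7 FPKM, against 48.3 to 54.2 FPKM in the other 5 libraries. Values without this library are given beside several of the results.

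**Figure D1:**
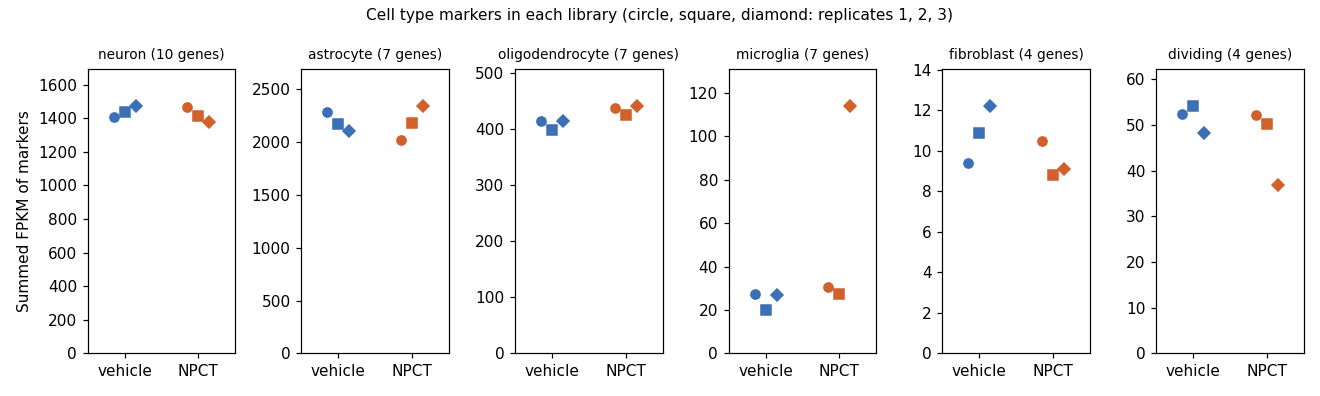
Summed FPKM of the defining markers of 6 cell types or states in each library, vehicle in blue and NPCT in orange, with circle, square and diamond for replicates 1, 2 and 3 and each axis starting at 0. The microglial sum of NPCT replicate 3 lies at 114 FPKM, far above the 19.8 to 30.6 FPKM of the other 5 libraries.

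A gene was counted as a differentially expressed gene (DEG) when its limma p, adjusted by Benjamini-Hochberg over all genes tested, did not exceed 0.05 and its fold change exceeded 1.5 in either direction. NPCT changed 562 genes by this rule, 3.85% of those tested. Of these, 411 were higher (2.82%) and 151 lower (1.03%), so 73.1% of the DEGs rose. These counts hold for a spread estimated from the 6 libraries alone. An earlier report on the series states that a fit that also takes its spread from the 3 libraries of the other treatment calls far fewer genes. That fit was not made here, so its count is not given. Most changes were small: 108 genes rose and 37 fell by more than 2-fold. Without the fold threshold, 1627 genes were higher and 1530 lower, and the median log2 fold change of all genes tested was 0.0015. The 3 NPCT libraries all lay above the 3 vehicle libraries in 21.2% of the genes tested and all below in 21.6%, and every one of the 562 DEGs was among these genes. In 26 DEGs a group held no more than 3 fragments in each library. OXPHOS and the mitochondrial genome accounted for 25 of the DEGs and ribosomal proteins for 14, which left 523 DEGs (93.1%), 381 higher and 142 lower. Without NPCT replicate 3 there were 491 DEGs, 359 higher and 132 lower, without vehicle replicate 1 there were 372, and without vehicle replicate 2 there were 313, 258 higher and 55 lower. Calls made in each of the 6 fits that left out 1 library numbered 204, of which 171 were higher and 33 lower.

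**Figure D2:**
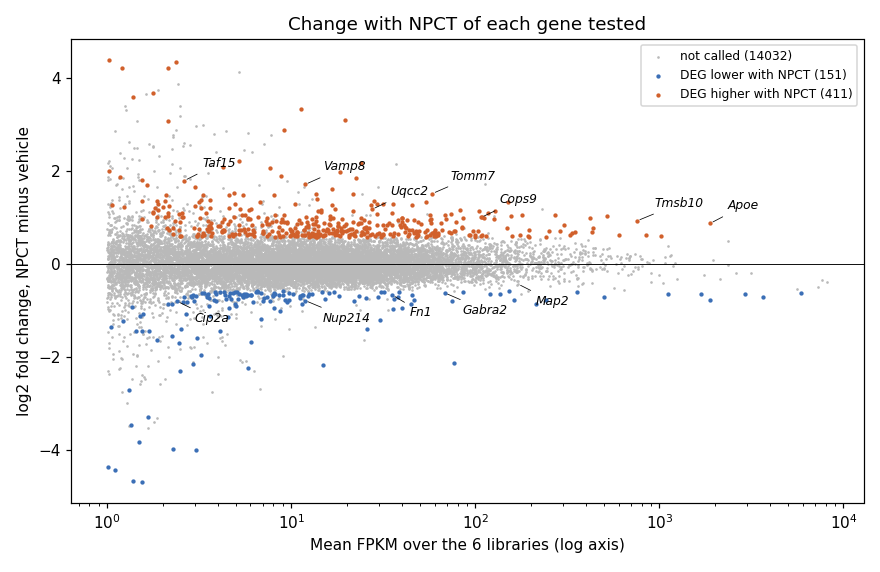
Log2 fold change with NPCT against mean FPKM (log axis) of the 14594 genes tested, with 411 DEGs higher in orange, 151 lower in blue and the rest in grey. Rises outnumber falls, and 108 rises and 37 falls lie beyond 2-fold.

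The DEGs were mainly short genes. Gene length here is the deposited exonic length. The genes tested were split by length into 10 classes of equal number. Of the 411 rises, 278 (67.6%) lay in the shortest 2 classes, at most 1131 bases, as did 80 of the 151 falls. In the longest 3 classes, from 3181 bases on, 13 genes rose and 27 fell. The median log2 fold change went from 0.15 in the shortest class and 0.17 in the next to -0.15 in the longest class. For each doubling of length the log2 level of a gene, taken relative to its mean over libraries, shifted by 0.029, 0.039 and 0.0035 in the vehicle libraries and by -0.025, -0.019 and -0.027 in the NPCT libraries. These slopes were taken over genes outside the OXPHOS and ribosomal families. The groups did not overlap (p = 0.1, exact permutation). A smooth trend with length (lowess), fitted in each library over all genes tested, was then removed. Its removal left 475 DEGs, of which 268 rose and 207 fell. The share of rises thus went from 73.1% to 56.4%, and 378 of the 562 DEGs kept their call. The share of fragments from the mitochondrial genome differed in the same manner, at 5.18 to 5.84% with vehicle and 3.70 to 4.17% with NPCT. The part of the length trend in the changes of single genes was not tested, and values with the trend removed stand beside most of the named genes that lost their call under it.

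**Figure D3:**
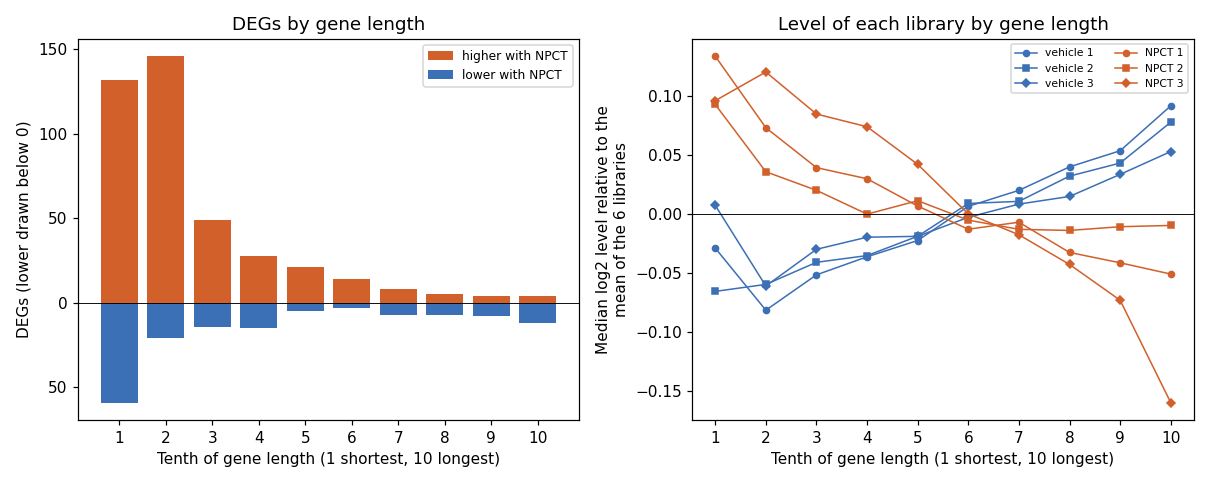
Left, number of DEGs higher (orange, above 0) and lower (blue, below 0) with NPCT in each of 10 classes of gene length, shortest first. Right, median log2 level of each class in each library relative to the mean of the 6 libraries, over genes outside the OXPHOS and ribosomal families. The NPCT lines lie above the vehicle lines in the first 5 classes and below them in the last 4, and NPCT replicate 3 is lowest in the longest class, at -0.16.

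The largest rises were mostly in small genes of several roles. They were ranked among genes with a usual symbol and at least 50 fragments per library in the higher group. Vamp8, a SNARE of endosomal and lysosomal fusion (chromosome 4, 100250301 to 100252755, build Rnor_6.0), measured 4.35, 5.82 and 6.45 FPKM with vehicle and 17.2, 16.0 and 21.6 FPKM with NPCT. The lowest NPCT library was well over the highest vehicle library, and the log2 fold change was 1.71 (standard error 0.17, limma adjusted p = 0.0034). Tomm7, a small subunit of the outer membrane translocase through which proteins enter mitochondria (chromosome 4, 7835949 to 7842789), measured 26.0, 27.8 and 37.1 FPKM with vehicle and 92.4, 71.2 and 96.1 FPKM with NPCT. The groups were again far apart (log2 fold change 1.51, standard error 0.16, adjusted p = 0.0039). Taf15, an RNA-binding protein of the FET family (chromosome 10, 70689863 to 70721892), was low throughout, with 1.26, 0.790 and 1.37 FPKM against 4.51, 4.07 and 3.72 FPKM. At 2124 bases it was the longest of the 8 genes named here (log2 fold change 1.79, standard error 0.23, adjusted p = 0.0061). Alkbh7, a mitochondrial AlkB homolog linked to necrotic cell death, rose by 1.61 on the log2 scale, from 6.32, 8.60 and 9.69 to 26.6, 20.6 and 28.4 FPKM. Crip1, a small LIM-domain protein, rose by 1.51, Fkbp2, a prolyl isomerase of the endoplasmic reticulum, by 1.34, and Hypk, a partner of the NatA acetyltransferase that also binds huntingtin, by 1.33. Hypk lies inside the interval of Mfap1a on the opposite strand, which changed by 0.05 and was not called. The gene RF00002, a 5.8S ribosomal RNA locus of 153 bases, showed the largest rise by the same rule, 1.98 (12 to 21 fragments with vehicle, 53 to 75 with NPCT), in libraries selected for polyadenylated RNA. All 8 genes kept their call in each of the 16 alternatives in which they were tested.

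Among genes of high level, Apoe rose most in absolute terms. Apoe encodes the main lipid carrier secreted by astrocytes and lies at chromosome 1, 80612895 to 80617057. It measured 1258, 1289 and 1429 FPKM with vehicle and 2314, 2092 and 2960 FPKM with NPCT, without overlap. The log2 fold change was 0.87 (standard error 0.12, limma adjusted p = 0.0071) and 0.73 without NPCT replicate 3. Tmsb10, which sequesters monomeric actin in growing neurites, rose from 509, 478 and 576 to 1029, 899 and 1048 FPKM (log2 fold change 0.93, standard error 0.08). Ftl1, the light chain of ferritin, rose by 0.61 on the log2 scale, from 803 ± 34.2 to 1237 ± 196 FPKM (SD, n = 3). Ftl1 overlaps a microRNA gene of the table on the same strand. Basp1, a membrane protein of growth cones, rose by 0.63, from 472 ± 37.8 to 731 ± 54.4 FPKM. Ftl1 fell short of the fold threshold without NPCT replicate 3 (0.49) and with the length trend removed (0.43), and Basp1 with the trend removed (0.50) and in 3 other alternatives, while both remained above 0 with an adjusted p of at most 0.046.

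Among genes with a usual symbol and at least 50 fragments per library in the higher group, the largest falls were smaller than the largest rises. Arrdc3, an alpha-arrestin that directs membrane receptors to lysosomes (chromosome 2, 8732932 to 8743069), measured 26.0, 29.6 and 27.9 FPKM with vehicle and 16.2, 15.4 and 16.2 FPKM with NPCT. Both groups were tight and did not overlap (log2 fold change -0.80, standard error 0.07, limma adjusted p = 0.0028). Nup214, a nucleoporin (chromosome 3, 9227823 to 9236736, a gene model of 837 bases), measured 16.0, 14.3 and 14.9 FPKM against 8.12, 9.57 and 8.51 FPKM (log2 fold change -0.78, standard error 0.09). The table lists Nup214 a second time with 7407 bases at 10999186 to 11070640, and this longer model was not called (-0.21, adjusted p = 0.067). Osmr, the receptor subunit for oncostatin M, measured 13.8, 12.3 and 10.5 FPKM against 6.28, 6.67 and 8.64 FPKM. Its log2 fold change was -0.76, and the call was lost without vehicle replicate 1 or 2 (adjusted p up to 0.057). Rnasek, a small protein that associates with the vacuolar proton pump, fell by 0.82 on the log2 scale and Cfap97, a cilium-associated protein, by 0.77. Rnasek overlaps another gene of the table on the same strand, and how fragments of the overlap were counted is not given in the sources used here. Esco2, the acetyltransferase of cohesin that acts in S phase, fell by 0.85, and Cip2a, an inhibitor of protein phosphatase PP2A that is expressed in dividing cells, by 0.80. Esco2 lost its call without each library except vehicle replicate 3 (adjusted p up to 0.098), and Cip2a without vehicle replicate 1 or 2 (up to 0.068). At high level, the GABA-A receptor subunit gene Gabra2 and Eif3el1, a near copy of the gene for translation factor subunit eIF3e whose reads can be shared with it, fell by 0.62 and 0.61. Eif3el1 missed the fold threshold without vehicle replicate 2 and with limma-voom on the recovered fragments (-0.57 at the weakest). The small RNA genes Mir568 and RF02266 fell by 0.78 and 0.71, and both lost their call without vehicle replicate 2 and in other alternatives (adjusted p up to 0.060 and 0.107).

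**Figure D4:**
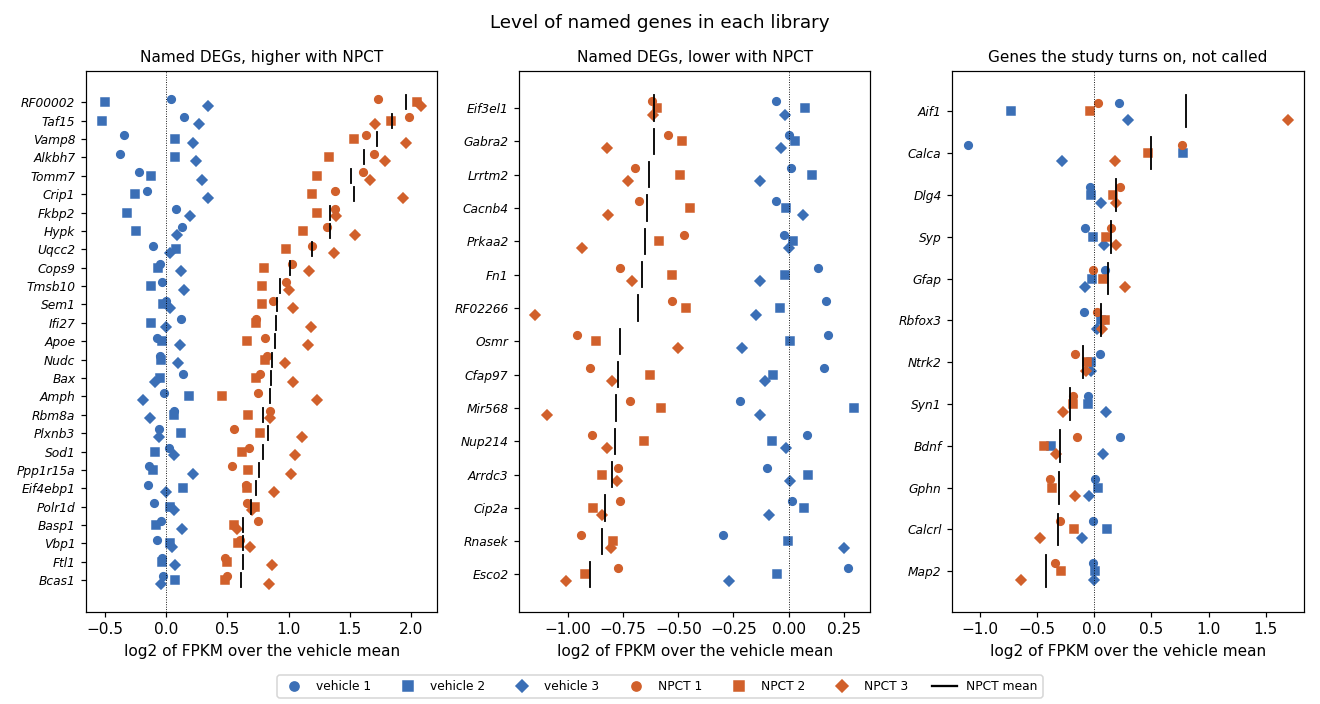
Level of each named gene in each library as log2 of FPKM over the vehicle mean, for DEGs higher (left), DEGs lower (middle) and genes the study turns on that were not called (right), with the NPCT mean as a bar. In the left and middle panels no NPCT library overlaps a vehicle library.

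The promoters of 3 of these genes are shown because Tomm7 and Uqcc2, another mitochondrial gene described next, rose and Arrdc3 fell with a call in each alternative in which they were tested. The sequences are from RefSeq (GRCr8), 250 bases before to 50 after the start of the gene. Capitals mark matches on either strand to the letters GCATGCGC for NRF1, CCGGAAG for ETS factors, TGACGTCA for CREB, GGGCGG for the GC box, CCAAT for NF-Y and TATAAA for the factor TBP.
Tomm7: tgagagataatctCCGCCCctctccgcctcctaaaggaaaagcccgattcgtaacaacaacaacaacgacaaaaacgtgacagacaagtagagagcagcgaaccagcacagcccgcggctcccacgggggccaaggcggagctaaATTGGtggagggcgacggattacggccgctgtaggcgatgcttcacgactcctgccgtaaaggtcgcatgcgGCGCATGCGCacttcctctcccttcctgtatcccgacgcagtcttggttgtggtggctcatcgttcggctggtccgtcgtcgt
Uqcc2: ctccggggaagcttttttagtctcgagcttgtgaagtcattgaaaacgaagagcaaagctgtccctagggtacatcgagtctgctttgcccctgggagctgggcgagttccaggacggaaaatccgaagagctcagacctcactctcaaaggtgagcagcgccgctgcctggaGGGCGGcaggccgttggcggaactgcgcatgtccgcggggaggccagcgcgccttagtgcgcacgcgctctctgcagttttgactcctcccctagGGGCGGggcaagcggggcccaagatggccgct
Arrdc3: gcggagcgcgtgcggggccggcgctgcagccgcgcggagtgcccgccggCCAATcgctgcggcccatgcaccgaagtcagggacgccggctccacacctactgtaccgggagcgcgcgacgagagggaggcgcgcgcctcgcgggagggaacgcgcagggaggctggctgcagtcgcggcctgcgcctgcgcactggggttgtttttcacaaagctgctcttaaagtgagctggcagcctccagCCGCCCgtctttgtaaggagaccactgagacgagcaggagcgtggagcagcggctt
Tomm7 held the NRF1 letters in both orientations as overlapping matches beginning 33 and 31 bases before the start, letters that 514 of the 9880 matched promoters of protein-coding genes tested hold (2.66% of all 27457 RefSeq promoters), and the GC box and NF-Y letters further up. Uqcc2 held 2 GC boxes, and Arrdc3 a GC box and the NF-Y letters, where 64.0% of the promoters of genes tested hold the GC box letters (34.9% of all promoters) and 37.7% the NF-Y letters (37.7% of all). A comparison of these shares between rising and falling genes is void, since only 72.8% of the protein-coding rises and 41.0% of the falls could be matched to a promoter.

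Mitochondrial genes outside the OXPHOS subunits rose in part. Mitochondrial protein import and chaperones had 4 of 42 genes tested higher (9.52%, beside 2.82% of all genes) and none lower, with a median log2 fold change of 0.13 beside 0.0015 for all genes. They were Tomm7, Tomm6 of the same translocase (0.72), Timm13, an intermembrane space chaperone (1.06), and Micos13 of the cristae organizing complex (0.71, and 0.58 without NPCT replicate 3, below the fold threshold). Factors that assemble the respiratory chain had 4 of 45 higher (8.89%) and none lower (median 0.10, and 0.05 with the length trend removed). Uqcc2, an assembly factor of complex III (chromosome 20, 5712203 to 5723902), measured 15.5, 17.7 and 17.1 FPKM with vehicle and 38.3, 33.0 and 43.4 FPKM with NPCT. The groups were separated by a wide gap (log2 fold change 1.17, standard error 0.10, limma adjusted p = 0.0028). Fmc1, which assembles ATP synthase, rose by 1.06, and Uqcc3 and Ndufaf8 by 0.60 and 0.64, the last 2 without a call in most fits that left out 1 library (adjusted p up to 0.14 and 0.093) or with the length trend removed (0.42 and 0.47). In the list of mitochondrial biogenesis and dynamics, only Prkaa2 of 27 genes was called, a fall, beside 1.03% of all genes that fell. Prkaa2 encodes the alpha 2 catalytic subunit of the energy sensor AMPK and fell from 13.9, 14.3 and 14.1 to 10.2, 9.41 and 7.40 FPKM. Its log2 fold change was -0.66 (standard error 0.12). The call was lost without NPCT replicate 3 (-0.53, short of the fold threshold) and without vehicle replicate 2 (adjusted p = 0.052). The TCA cycle (25 tested) and glycolysis (20 tested) held no DEG, at medians of -0.03 and 0.12, which were -0.06 and 0.06 with the length trend removed. Without 1 library they ran from -0.06 to -0.01 and from 0.07 to 0.15.

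Single genes of the machineries for protein turnover, RNA handling and translation rose. Their lists differed in how far they stood from the 2.82% of all genes that were higher. This 2.82% takes no account of gene length. In the shortest class of length 9.04% of genes were higher, and 10.01% in the next, which ends at 1131 bases. The median gene length was 937.5 bases in the spliceosomal list and 1022 bases in the polymerase list. Whether the share of any list exceeded that of genes of like length was not tested. In the proteasome list 2 of 33 genes (6.06%) were higher and none lower (median 0.11). Sem1, a small subunit of the proteasome lid, rose from 27.9, 27.3 and 28.4 to 51.1, 47.9 and 57.3 FPKM. The vehicle libraries differed by about 1 FPKM, and the log2 fold change was 0.89 (standard error 0.07, limma adjusted p = 0.0028). Psmb6, a catalytic subunit, rose by 0.63. Among ubiquitin-like proteins, ligase subunits and the COP9 signalosome, which removes the modifier NEDD8 from cullins, Cops9 (1.00), Rbx1 (0.62) and Anapc13 (0.62) of 32 genes (9.38%) were higher (median 0.06). The list of Sm, LSm and other small spliceosomal subunits had 5 of 34 higher (14.7%, median 0.11), namely Lsm7 (0.85), Lsm4 (0.83), Rbm8a (0.78), Snrnp70 (0.71) and Snrnp35 (0.61). Rbm8a of the exon junction complex rose from 19.5, 19.5 and 17.0 to 33.6, 29.6 and 33.5 FPKM, with tight groups on both sides. RNA polymerase and Mediator subunits had 3 of 29 higher (10.3%, median 0.09), Polr2k (0.90), Polr1d (0.69) and Polr2j (0.59). Translation factors had 1 of 37 (2.70%, near the share of all genes, median 0.01), the cap-binding inhibitor Eif4ebp1 (0.73). Chaperones and prefoldin had 3 of 27 higher (11.1%, median 0.03), all prefoldin subunits: Pfdn6 (0.98), Pfdn2 (0.76) and Vbp1 (0.62). Of the dynein list, Dynlrb2 (1.05) and the dynein cofactor Nudc (0.86) of 25 genes were higher, while the median of the list was -0.10 and 15 of its genes lay below 0. None of these lists held a falling DEG. With the length trend removed, Psmb6, Rbx1, Anapc13, Snrnp35, Polr1d, Polr2j, Eif4ebp1 and Vbp1 fell below the fold threshold, at 0.41 to 0.56, and Lsm7 lost its call without vehicle replicate 1 or 2 (adjusted p up to 0.056). Psmb6, Rbx1, Anapc13, Snrnp35, Polr2j and Vbp1 also missed the fold threshold without at least 1 of the libraries, at 0.50 to 0.58. Under the same removal the medians of the spliceosomal and polymerase lists went from 0.11 and 0.09 to -0.01 in both, that of the proteasome to 0.01, that of chaperones and prefoldin to -0.03 and that of dynein to -0.06, and that of the ubiquitin-like list was no longer above 0. Without NPCT replicate 3 the proteasome median was 0.06 and that of the ubiquitin-like list 0.02, and that of chaperones and prefoldin was no longer above 0. The median of translation factors was below 0 and that of dynein -0.06 without vehicle replicate 3.

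The lists of stress and death genes held few DEGs each, and only that of apoptosis lay near the share of all genes. Of 32 genes of apoptosis, Bax, the pore-forming protein of the mitochondrial outer membrane, was the only DEG, a share near the 2.82% of all genes that were higher, and the median of the list was 0.00. It measured 30.6, 26.9 and 26.1 FPKM with vehicle and 47.5, 46.3 and 57.2 FPKM with NPCT, without overlap (log2 fold change 0.85, standard error 0.10, limma adjusted p = 0.0047). The Nrf2 and glutathione list had 3 of 39 genes higher (7.69%, beside 2.82% of all genes) and none lower. Its median of 0.16 was 0.10 with the length trend removed and also without NPCT replicate 3. Sod1, the cytosolic superoxide dismutase, rose from 111, 102 and 113 to 173, 167 and 225 FPKM (log2 fold change 0.78), Ftl1 rose as given above, and the glutathione transferase Gstm3 rose by 2.00 from 4 to 7 fragments per library to 17 to 27, with no call without vehicle replicate 2 (adjusted p = 0.060). Gstm3 passed the filter of 1 FPKM only through its NPCT libraries and was not tested without NPCT replicate 3. The filter thus favoured a rise of this gene, which counts toward the 7.69%. In the list of the unfolded protein and integrated stress response, 2 of 32 genes were higher (6.25%, beside 2.82% of all genes). They were the phosphatase regulator Ppp1r15a (0.74) and the chaperone partner Sdf2l1 (0.89). Ppp1r15a had no call when vehicle replicate 1 or 2 was left out (adjusted p up to 0.063), and Sdf2l1 had none in 5 alternatives (up to 0.085).

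Synaptic and neuronal lists had medians at or below 0 and few DEGs. The list of the inhibitory synapse and GABA had the lowest median of all, -0.23, and it was the same with the length trend removed (-0.23). Of its 28 genes, 16 (57.1%) had all NPCT libraries below all vehicle libraries, against 21.6% of all genes tested, and 1 all above, against 21.2%. The 2 DEGs (7.14%, beside 1.03% of all genes) both fell. Gabra2, the alpha 2 subunit of the GABA-A receptor (chromosome 14, 39661968 to 39798302), measured 82.6, 84.2 and 80.6 FPKM with vehicle and 56.4, 58.9 and 46.7 FPKM with NPCT. The 3 vehicle libraries were close together and all lay above the NPCT libraries (log2 fold change -0.62, standard error 0.09, limma adjusted p = 0.0073). Without NPCT replicate 3 the log2 fold change was -0.52, below the fold threshold. Gabrg1, the gamma 1 subunit, fell by 0.59 and lost its call in 6 alternatives (adjusted p up to 0.081). Gad2, which makes GABA at terminals, was at 25.4 ± 1.35 FPKM with vehicle and 18.8 ± 0.682 FPKM with NPCT, a log2 fold change of -0.43 with an adjusted p of 0.0077, and Gad1 was at -0.06 with an adjusted p of 0.52. Gephyrin (Gphn), the scaffold under GABA-A receptors, was at 41.8, 42.4 and 40.1 FPKM against 31.6, 32.1 and 37.0 FPKM (-0.31, adjusted p = 0.023), short of the fold threshold.

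On the excitatory side, the scaffold list had a median of 0.00 over 26 genes. Its only DEG was a fall (3.85%, beside 1.03% of all genes lower and 3.85% called in either direction). Lrrtm2, a postsynaptic adhesion protein that binds neurexin, fell from 11.9, 12.7 and 10.8 to 7.29, 8.39 and 7.14 FPKM (log2 fold change -0.63, standard error 0.10). It fell short of the fold threshold with the length trend removed (-0.54) and without vehicle replicate 2 (adjusted p up to 0.041 over its alternatives). Dlg4, which encodes PSD-95, was at 127 ± 4.80 FPKM with vehicle and 146 ± 3.43 FPKM with NPCT, a log2 fold change of 0.19 with an adjusted p of 0.026. Glutamate receptors (24 tested) held no DEG at a median of -0.18, which was -0.10 with the trend removed and -0.11 without NPCT replicate 3. In the vesicle and release list 18 of 38 genes (47.4%) had all NPCT libraries below, against 21.6% of all genes, and 8 (21.1%) all above, against 21.2%. The median of -0.07 was -0.01 with the length trend removed and -0.04 without NPCT replicate 3. Its only DEG was a rise, that of Amph, which acts in vesicle endocytosis, from 9.83, 11.3 and 8.73 to 16.8, 13.7 and 23.4 FPKM. NPCT replicate 3 was the highest, and the log2 fold change of 0.81 dropped to 0.61 without it, while the call was lost in 6 other alternatives (adjusted p up to 0.081). Of the synaptic vesicle markers, Syn1 measured 131 ± 8.30 and 113 ± 3.96 FPKM (-0.21, adjusted p = 0.039) and Syp 222 ± 13.0 and 247 ± 7.29 FPKM (0.15, adjusted p = 0.089, and 0.06 with the trend removed). Voltage-gated channels had 1 DEG of 43, a fall (2.33%, beside 1.03% of all genes lower and 3.85% called in either direction). It was the calcium channel subunit Cacnb4 (-0.64), which missed the fold threshold with the trend removed (-0.58) and without NPCT replicate 3 (-0.55). Their median went from -0.14 to -0.01 when the trend was removed and to -0.03 without NPCT replicate 3, and that of axon guidance and adhesion from -0.17 to -0.05 and to -0.10. The latter list had 32 of 62 genes (51.6%) with all NPCT libraries below. Its only DEG, below the 2.82% of all genes that were higher, was the rise of Plxnb3, a semaphorin receptor (0.78), lost without any of the 3 vehicle libraries (adjusted p up to 0.077).

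The neuronal identity list held no DEG among 25 genes. Its median was -0.05, and -0.10 with the length trend removed, with 17 genes below 0 and 8 above. In 11 genes (44%) all NPCT libraries lay below all vehicle libraries, against 21.6% of all genes. In 4 (16%) they all lay above, against 21.2%. The largest difference in the list was that of Eno2, a neuronal enolase, at 12.1, 16.0 and 1.48 FPKM with vehicle and 1.50, 1.59 and 1.42 FPKM with NPCT. Vehicle replicate 3 lay with the NPCT libraries, the groups overlapped, and the gene was not called (log2 fold change -2.08, limma adjusted p = 0.10). Map2, the microtubule-associated protein of dendrites, was at 194, 195 and 195 FPKM with vehicle and 153, 159 and 125 FPKM with NPCT, a log2 fold change of -0.43 (limma adjusted p = 0.019). With the length trend removed it was -0.25. Snap25, a SNARE of the terminal, was at -0.42 (adjusted p = 0.0069), Neurod6 at -0.35 (0.0070) and Syt1 at -0.30 (0.013), all NPCT libraries below. Slc17a7, the vesicular glutamate transporter, was at 114 ± 2.67 FPKM with vehicle and 139 ± 9.99 FPKM with NPCT (0.28, adjusted p = 0.020). Rbfox3, which encodes the nuclear marker NeuN, was at 30.7 ± 1.61 and 32.0 ± 0.800 FPKM (0.06, adjusted p = 0.48). Tubulins and microtubule proteins (39 tested), chromatin regulators (55 tested, median -0.09, 0.04 with the length trend removed and -0.18 to -0.04 without 1 library, the last without NPCT replicate 3), activity-induced genes (27 tested) and cholesterol synthesis and uptake (27 tested) held no DEG either. The median of the activity-induced genes was -0.21, and 0.15 without vehicle replicate 3, the library in which they were highest.

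Genes tied to the question of the study itself were not called. Calca, the source of NPCT, was at 0.449, 1.64 and 0.793 FPKM with vehicle and 1.64, 1.33 and 1.09 FPKM with NPCT, and the groups overlapped (log2 fold change 0.60, limma adjusted p = 0.40). The receptor genes Calcrl and Calcr measured 5.13 ± 0.398 against 4.13 ± 0.423 FPKM (-0.31, adjusted p = 0.11) and, below the filter, 2 to 7 fragments per library. The list of calcitonin peptides and receptors held no DEG among 5 tested. Of the neurotrophin list (15 tested, no DEG), Bdnf was at -0.28 (adjusted p = 0.36) and its receptor gene Ntrk2 at -0.10 (0.16), which became -0.15 and 0.08 with the length trend removed.

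Among markers of other cells, the astrocyte list held no DEG of 20 (median 0.09, and 0.05 with the length trend removed), and Gfap was at 0.11 (limma adjusted p = 0.34). The oligodendrocyte lineage had 7 of 15 genes (46.7%, against 21.2% of all genes) with all NPCT libraries above and none below (median 0.20, 0.29 with the length trend removed, and 0.17 to 0.35 without 1 library). Bcas1, which marks cells that begin to myelinate, was its only DEG, from 27.7, 29.7 and 27.4 to 39.8, 39.4 and 50.6 FPKM (log2 fold change 0.60, standard error 0.10), and it missed the fold threshold without NPCT replicate 3 (0.49) or vehicle replicate 3. Mbp was at 8.94 ± 1.03 FPKM with vehicle (SD) and 12.3, 10.8 and 25.2 FPKM with NPCT. The microglial list had the highest median, 0.47, with 17 of 18 genes above 0 and none called, and this rested on NPCT replicate 3: its median level relative to all libraries was 1.28 on the log2 scale, against -0.20 and -0.29 in the other NPCT libraries, and without it the median change was -0.07. Aif1 was at 4.65, 4.45 and 14.7 FPKM with NPCT and at 2.76 to 5.61 FPKM with vehicle. C1qa, the complement component made by microglia, was at 5.16, 3.78 and 5.01 FPKM with vehicle and 9.69, 8.78 and 38.2 FPKM with NPCT. It was not called (log2 fold change 1.66, adjusted p = 0.060), but was called at 0.99 (adjusted p = 0.014) without NPCT replicate 3. Interferon-stimulated genes had 3 of 25 higher, beside 2.82% of all genes, namely Irf7 (1.01), Bst2 (0.93) and Ifi27 (0.88). Ifi27 rose from 43.5, 36.6 and 39.7 to 66.4, 66.4 and 90.5 FPKM and kept its call throughout, whereas Irf7 and Bst2 each lost theirs in 7 alternatives (adjusted p up to 0.091 and 0.107), Bst2 among others with the length trend removed (0.77). Cytokines and NF-kB (30 tested) and endothelium with pericytes (2 tested) held no DEG. Fn1, the matrix protein fibronectin, was the only DEG of 14 fibroblast and meningeal genes (beside 1.03% lower over all genes, list median -0.0014) and fell from 47.6, 43.0 and 39.6 to 25.5, 30.1 and 26.5 FPKM (log2 fold change -0.67, standard error 0.09, and -0.50 with the length trend removed). Of 35 genes of dividing cells, Cip2a and the cyclin Ccne2 (-0.60) were lower (5.71%, beside 1.03% of all genes) and none higher, at a median of -0.14, and of -0.02 without NPCT replicate 3 and -0.08 without vehicle replicate 2. The level of this list was lowest in NPCT replicate 3 (-0.35), and the call of Ccne2 was lost without it (adjusted p = 0.051) and in 6 other alternatives (up to 0.076), among them the length trend removed (-0.57). The part of cell composition in these changes was not tested.

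**Figure D5:**
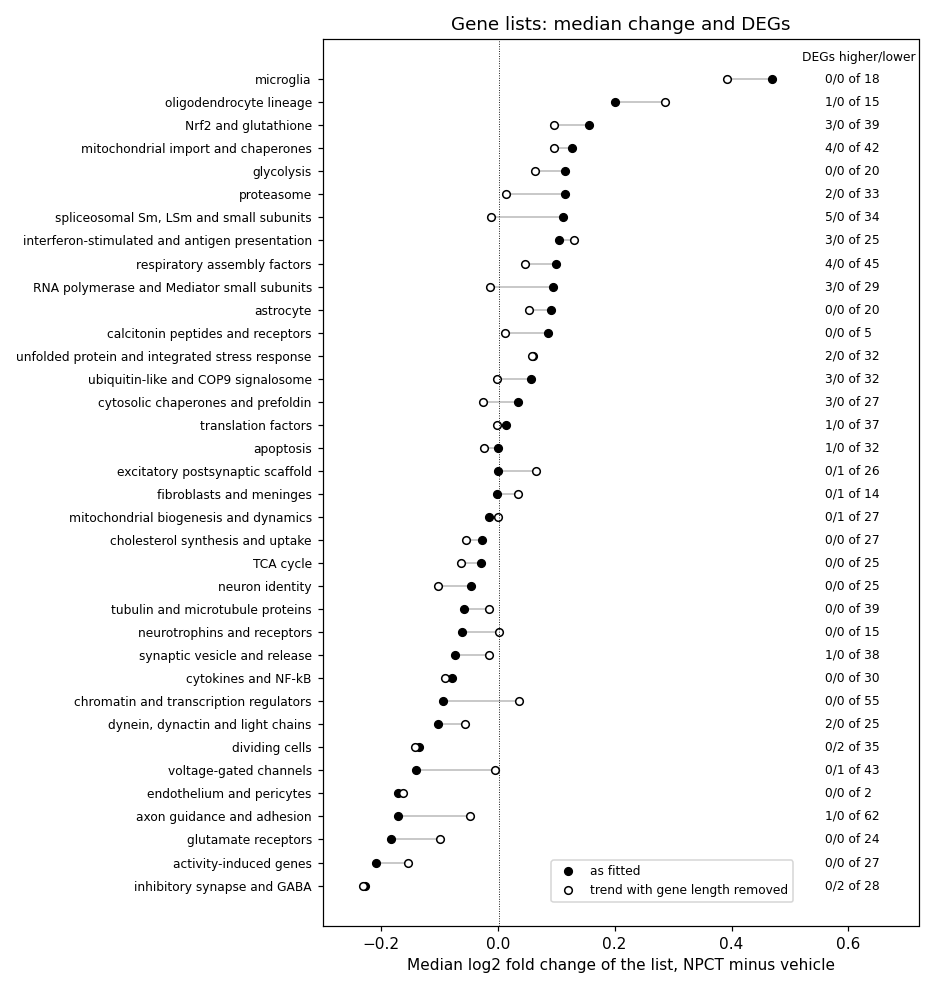
Median log2 fold change of each of the 36 gene lists as fitted (filled) and with each library's trend with gene length removed (open), with the number of DEGs higher and lower of the genes tested at the right and the median of all genes as a dotted line. The inhibitory synapse list lies at -0.23 in both, whereas the channel, chromatin, spliceosome and polymerase lists move to near 0 when the trend is removed.

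The 36 lists together covered 1033 of the genes tested and 47 DEGs, 39 higher and 8 lower, so most of the 523 DEGs outside the OXPHOS and ribosomal families belong to none of them. By deposited gene class, protein-coding genes made up 401 DEGs, 323 higher and 78 lower of 12749 tested. Transcription factors by the deposited family column had 19 higher and 11 lower of 880, close to the 2.82% and 1.03% of all genes tested, at a median of -0.05. Genes annotated as microRNAs had 24 higher (13.5%) and 9 lower (5.06%) of 178, and small nuclear RNAs 5 lower of 68 (7.35%). Small nucleolar RNAs had 6 higher of 213 (2.82%, as over all genes) and 8 lower (3.76%). These genes are much shorter than the cDNA fragments selected for sequencing, and 289 of 496 small RNA genes tested lay inside a larger tested gene, so their values are not levels of the mature small RNAs. Of the small RNA DEGs, 12 of the 32 higher and 17 of the 25 lower lay inside such a gene.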

How the data were processed

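The series measured RNA of rat hippocampal cultures. Polyadenylated RNA was selected and random-primed, and whether the libraries keep strand is not given in the sources used here. The submitters' processing notes name HISAT2 2.0.5, StringTie 1.3.3b, featureCounts 1.5.0-p3, DESeq2 1.20.0 and the build Rnor_6.0, without roles. The authors aligned clean reads, counted them on genes and deposited FPKM, unlogged, with gene position, length and biotype. Columns of 3 further libraries were not used.

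FPKM times gene length gave whole fragments (within 0.01) for 100% of values above 0, which gave the depth of 13573056 to 15360559 fragments per library. Each library was scaled by the median, over genes, of its FPKM relative to the geometric mean over libraries, and log2(FPKM + 0.1) of genes with a mean of at least 1 FPKM went into limma 3.58.1 (R 4.3.3) with 2 groups, with a prior variance that follows the level and Benjamini-Hochberg adjustment over all genes tested. Fold changes are on this scale and are understated for low genes. DEGs had an adjusted p no higher than 0.05 and more than 1.5-fold change. The procedure was tested on simulated data, and no value from that test is given here. Replicate numbers did not pair the libraries (correlations of same-numbered libraries -0.08, 0.01 and 0.01). Single values per library were compared by exact permutation tests.

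Genes were named if they had a usual symbol, at least 50 fragments per library on average in the higher group and no OXPHOS or ribosomal role, and were (a) among the 8 largest rises or falls with no overlap of groups, (b) among the 4 DEGs of highest level in each direction, (c) the DEG of smallest p in a list, or (d) genes the study turns on, of which 1 is not reported here. The other DEGs of a list, and the marker genes Eno2, Snap25, Syt1, Gad2, Gad1, Neurod6, Slc17a7, Mbp, Olig1 and C1qa, were named after their values were seen. The members and the 36 lists were chosen with earlier results of these data known. Promoters were matched by symbol or synonym to RefSeq. Alternatives were pseudocounts of 1 and 0.01, a mean of at least 5 FPKM, no filter, FPKM as deposited, quantile normalization, a constant prior variance, a replicate block, removal of the length trend by lowess in each library, limma-voom on the recovered fragments, leaving out each library, and, chosen after seeing the data, protein-coding genes of at least 1000 bases only.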

Additional observations from a re-analysis of the deposited data

How the results depend on the processing

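The number of DEGs was 462 to 566 with other pseudocounts, 505 with no filter, 563 with FPKM as deposited, 538 with quantile normalization, 481 with a constant prior variance and 668 with limma-voom on the recovered fragments (536 higher, 132 lower). With a replicate block it was 523, of which 481 were DEGs without the block, and the call of Amph was lost (adjusted p = 0.062), as were those of Irf7, Ccdc114, Morn5 and Drc7. A mean of at least 5 FPKM left 93 falls. Removal of the length trend left 268 rises. Without 1 library the total ran from 313 (without vehicle replicate 2) to 692 (without NPCT replicate 2), the rises from 258 to 479 and the falls from 55 to 213, and without vehicle replicate 1 it was 372, with 89 falls. Restriction to protein-coding genes of at least 1000 bases, chosen after seeing the data, gave 260 DEGs, 181 higher and 79 lower. No called gene that the text names changed direction in any alternative. The uncalled genes Ntrk2 and Rbfox3 changed sign with the length trend removed (0.08 and -0.01). The calls rest on the spread of these 6 libraries alone. By the earlier report on the series, far fewer genes are called when the spread is shared with the 3 libraries of the other treatment. Those libraries were not used here. Of the 104 genes followed through the alternatives, 38 lost their call without vehicle replicate 2, the largest number for any setting, and 25 with the length trend removed.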

Other observations

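A further 3 groups of genes were put together after the calls were seen and carry no test, and their counts depend on which genes were put in. Genes of motile cilia and their axoneme, the microtubule core that moves fluid over ependymal cells, had 11 DEGs higher of 47 tested, beside 2.82% of all genes, and 45 of the 47 lay above 0. Both counts include Morn5, and the second Ccdc151, which averaged 0.785 and 0.789 FPKM with vehicle. These genes passed the filter of 1 FPKM only through their NPCT libraries, so a rise was built in for them. The group leaves out Cfap97, the cilium-associated gene that fell (-0.77). Their median log2 fold change was 0.44, and 0.45 with the length trend removed, beside 0.0015 for all genes. Rsph1, a radial spoke head protein, went from 2.76, 2.85 and 3.89 FPKM with vehicle to 5.35, 4.94 and 8.19 FPKM with NPCT. Drc1, of the nexin-dynein regulatory complex, went from 4.14, 4.62 and 4.86 to 6.72, 6.98 and 7.96 FPKM (log2 fold change 0.65, limma adjusted p = 0.0098), and Tppp3, a tubulin-binding protein, from 8.48, 9.55 and 7.07 to 13.7, 13.9 and 20.3 FPKM (0.91). No library of one group overlapped the other in these 3 genes. Drc1 lost its call with a pseudocount of 1, Rsph1 lost it in 5 alternatives (adjusted p up to 0.092) and Tppp3 without vehicle replicate 1 (0.052). Of the 11, Dynlrb2 alone kept its call throughout. Ccdc114 and Morn5 lost theirs in 8 alternatives each, Drc7 in 6, Zmynd10 in 5, Cfap45 and Cfap99 in 4 each and Iqcd in 2 (adjusted p up to 0.12). For Zmynd10 and Iqcd the removal of the length trend was among them.

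Genes of neural progenitors of the dorsal telencephalon had 6 DEGs higher of 28, beside 2.82% of all genes, with 26 above 0 and a median of 0.32. Dmrta2, a transcription factor of the cortical hem and hippocampal primordium, went from 6.05, 6.52 and 7.18 to 12.6, 12.3 and 12.3 FPKM (log2 fold change 0.91, adjusted p = 0.0028) and kept its call in every alternative. Nes, the intermediate filament nestin, rose by 0.71, Sp8 by 0.73, Wnt8b by 0.66, Sox21 by 0.62 and Sox12 by 0.61. The deposited gene class of Sox21 is pseudogene. Nes is 6085 bases long, and the part of the length trend in its change was not tested. Nes, Sp8 and Wnt8b missed the fold threshold without NPCT replicate 3 (0.56, 0.56 and 0.58) and had no call without vehicle replicate 1 or 2 (adjusted p up to 0.055, 0.080 and 0.062). Sox12, Sox21 and Wnt8b missed it with the length trend removed (0.47, 0.45 and 0.58).

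Targets of p53 and genes of growth arrest had 5 DEGs higher of 25, beside 2.82% of all genes, but only 13 of the 25 lay above 0, at a median of 0.01. The p53 targets Cdkn1a (0.27, limma adjusted p = 0.23) and Mdm2 (-0.09, adjusted p = 0.51) were not called. Beside Bax the 5 DEGs were Gdf15, a secreted factor released under mitochondrial stress (0.94), Gadd45a (0.76), Phlda3 (0.76) and Gadd45g (0.62). Gdf15 was at 22.5, 29.0 and 48.3 FPKM with NPCT and 14.6 to 17.9 FPKM with vehicle, and its log2 fold change was 0.64 without NPCT replicate 3. Gdf15, Gadd45a and Gadd45g lost their call in 7, 8 and 5 alternatives (adjusted p up to 0.12, 0.13 and 0.067), in each case also with the length trend removed (0.79, 0.66 and 0.50). Of these 5 genes, Bax and Phlda3 kept their call in every alternative.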
